A study of Mus musculus with 29 samples.

Results

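Liver of male mice aged 10 months was compared with liver of the same sex aged 5 months, within the arm labelled VEH. The 10-month group held 6 libraries and the 5-month group held 4, which makes 10 of the 29 libraries of the series. The 5-month libraries were chosen by the level of Ly6d, a surface protein gene, in CPM, the counts scaled to a common library total. Replicates 1, 2, 3 and 5 carried 7.34, 4.68, 8.09 and 2.35 CPM and were kept, and replicates 4 and 6 carried 72.9 and 123 CPM, above the limit of 50 CPM, and were left out. The highest library kept was thus at 8.09 CPM and the lowest left out at 72.9 CPM. All 6 libraries of 10 months were under the limit, at 0.75 to 1.94 CPM.

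The series asked how exposure to tributyltin (TBT), an organotin compound, during gestation and nursing affects the adult liver of the offspring. The dams of the exposed arm received TBT in their drinking water, and the VEH arm is read here as its control. The labels give neither a strain nor a genotype, and name no time of day, fasting state or collection date for the tissue. Age therefore cannot be told apart from anything else that differed between the 5-month and the 10-month collections. Whether the libraries are from separate animals is not stated, so p-values here reflect only how these libraries varied, which may be technical.

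The liver secretes most plasma proteins, clears drugs and bile acids, and stores and burns fat. Injury or infection reaches hepatocytes through cytokines such as interleukin 6 and interleukin 1, which switch on the acute phase genes, while viral or endogenous nucleic acids switch on interferon-stimulated genes. Cells that fold many secreted proteins also depend on chaperones of the endoplasmic reticulum, and many hepatocyte genes follow the daily clock.

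Total counts were 18603160 to 33704303 in the 4 libraries of 5 months and 25714194 to 30362835 in the 6 of 10 months. The 4 hepatocyte markers were Alb, Ttr, Apoa1 and Serpina1c. Their summed level was 69900 to 147000 CPM at 5 months and 96000 to 123000 CPM at 10 months. Alb made up most of it, at 50900 to 117000 and 79000 to 104000 CPM. Of the 4 markers 1 was called lower and 0 higher, and Apoa1 was at 11600 to 18200 and 7780 to 9700 CPM, without overlap. Markers of Kupffer cells summed to 185 to 453 and 240 to 354 CPM, and those of stellate cells to 361 to 428 and 255 to 457 CPM. Neutrophil markers summed to 1.39 to 11.6 and 1.07 to 2.85 CPM, with the highest value in 5-month replicate 3, and erythroid markers to 184 to 997 and 212 to 485 CPM, with the highest value in 5-month replicate 1. Markers of adipocytes and intestine stayed at or under 0.586 CPM. In bulk tissue, fewer cells of a type cannot be told apart from less RNA per cell.

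Of 12567 genes tested, 2633 (21%) differed between the ages at an adjusted p under 0.05. At 10 months 1233 genes (9.81%) were higher and 1400 (11.1%) lower. Changes of at least 2-fold were seen for 187 of the higher and 203 of the lower genes. All 6 libraries of 10 months lay above all 4 of 5 months for 1042 genes (8.29%), and below them for 945 (7.52%). The first principal component held 34.9% of the variance and placed the 5-month libraries at -38.7 to -21.8 and the 10-month libraries at 12.3 to 26.5. The split of directions depended on the scaling. With libraries scaled by their totals alone, 2063 genes were higher and 690 lower, and the median log2 fold change of all genes moved from -0.008 to 0.115. For 275 tested genes, every 5-month library kept lay at least 2-fold from every one left out. They are tied to the choice of libraries. Counts over all genes and over lists include the 51 of them that passed the threshold, and where a tied gene is named its levels are given without a test.

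**Figure D1:**
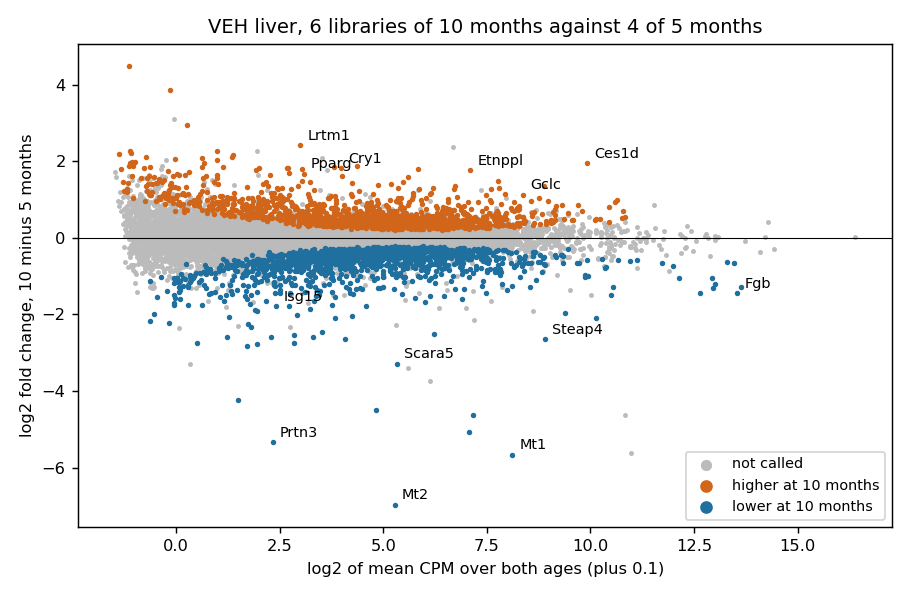
Each point is 1 of the 12567 tested genes. The horizontal axis is the log2 of its mean CPM over both ages (plus 0.1), the vertical axis its log2 fold change (10 minus 5 months), and colours mark genes at an adjusted p under 0.05, with Mt2 lowest at -6.97 and Ces1d at 1.95 among the abundant genes that were higher.

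The steepest falls among genes at 2 CPM or more were in the metallothioneins, small cysteine-rich proteins that bind zinc and copper and are induced by metals, glucocorticoids and inflammation. Mt1 (ENSMUSG00000031765, chromosome 8, 94179082 to 94180327, mm10) was at 164, 112, 379 and 1520 CPM in 5-month replicates 1, 2, 3 and 5, and at 10 months it ranged from 2.36 to 33.4 CPM with a median of 5.85. Every 10-month library lay below every 5-month library. The log2 fold change was -5.66 (SE 1.06, adjusted p = 0.00828). Mt2 (ENSMUSG00000031762, chromosome 8, 94172664 to 94173568, mm10) was at 2.97, 2.57, 20.8 and 280 CPM in the same 5-month libraries and at 0.107 to 1.77 CPM (median 0.346) at 10 months. The groups did not overlap, but 5-month replicate 5 stood far above the rest (log2 fold change -6.97, SE 1.57, adjusted p = 0.0177; limma-voom gave adjusted p = 0.2). Both genes kept their calls in all 10 fits that left out 1 library. Without 5-month replicate 5 their log2 fold changes were -4.35 and -3.84, and without 10-month replicate 7 they were -6.42 and -7.57.

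The promoters of both genes are shown because their fall was the steepest among genes at 2 CPM or more. They come from RefSeq (GRCm38.p6), from 250 bases before to 50 after the start, 5′ to 3′ on the gene's strand. Capitals mark the core of the metal response element, the site of the zinc-sensing factor MTF1, searched as TGCACNC or TGCGCNC on both strands with overlaps allowed. Mt1 held 3 matches and Mt2 held 4, while 35.8% of 9914 promoters of the same length held at least 1, so the match alone is common.
Mt1, chr8:94178839-94179138, plus strand: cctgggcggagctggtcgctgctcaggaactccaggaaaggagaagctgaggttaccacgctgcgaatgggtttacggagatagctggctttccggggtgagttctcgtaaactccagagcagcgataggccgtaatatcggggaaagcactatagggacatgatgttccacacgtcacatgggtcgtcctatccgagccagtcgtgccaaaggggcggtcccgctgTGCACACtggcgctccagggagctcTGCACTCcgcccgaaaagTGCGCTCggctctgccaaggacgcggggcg
Mt2, chr8:94172368-94172667, plus strand: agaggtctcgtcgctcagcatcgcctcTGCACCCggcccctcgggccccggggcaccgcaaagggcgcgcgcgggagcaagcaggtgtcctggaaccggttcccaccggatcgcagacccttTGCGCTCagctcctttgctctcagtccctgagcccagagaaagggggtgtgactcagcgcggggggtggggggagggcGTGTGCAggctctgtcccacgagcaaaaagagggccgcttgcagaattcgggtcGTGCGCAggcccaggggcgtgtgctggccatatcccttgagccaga

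Acute phase genes fell as a group. Of the 29 members tested, 17 fell and 0 rose, where 11.1% of all genes were lower and 9.81% higher. The median log2 fold change was -1.32 against -0.008 over all genes. In 11 of the 29 all 10-month libraries lay below all of 5 months, against 7.52% of all genes. The 3 chains of fibrinogen, the clotting protein that hepatocytes secrete, fell together. Fgb (ENSMUSG00000033831, chromosome 3, 83040141 to 83049863, mm10) was at 14300, 13000, 22800 and 19800 CPM at 5 months and at 5510 to 7950 CPM (median 6150) at 10 months. No library of 10 months reached the lowest of 5 months (log2 fold change -1.45, SE 0.18, adjusted p = 0.0005). The other two chains, Fga and Fgg, differed on the log2 scale by -1.28 (SE 0.17, adjusted p = 0.000769) and -1.21 (SE 0.17, adjusted p = 0.000947), also without overlap.

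Saa4, a constitutive serum amyloid A that rides on lipoproteins, was at 360, 308, 468 and 418 CPM at 5 months and 120 to 185 CPM (median 174) at 10 months. The groups stood apart (log2 fold change -1.26, SE 0.14, adjusted p = 0.000352). Il1rn, the secreted antagonist of the interleukin 1 receptor, was at 6.74, 7.41, 4.05 and 5.65 CPM and 1.18 to 2.36 CPM (median 1.49), again without overlap (log2 fold change -1.90, SE 0.21, adjusted p = 0.000352). A few further genes were named after their values were seen. Steap4, a metalloreductase induced by inflammation, was at 398, 451, 725 and 1710 CPM and 104 to 188 CPM (median 121; log2 fold change -2.64, SE 0.40, adjusted p = 0.00254). Serpina3n, a secreted protease inhibitor, differed by -2.09 log2 units (SE 0.36, adjusted p = 0.00375), and Il1r1, the receptor that receives interleukin 1, by -2.50 (SE 0.56, adjusted p = 0.0159). In all 3 every 10-month library was below every 5-month library. Without 5-month replicate 5, Steap4 was at -1.99 and Il1r1 at -1.54 on the log2 scale, both still called.

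Part of the acute phase fall rested on 5-month replicate 3. Lcn2, an iron-sequestering lipocalin of liver and neutrophils, was at 37.1, 10.5, 918 and 83 CPM at 5 months and 0.898 to 21.4 CPM (median 7.13) at 10 months. Orm2, an orosomucoid, was at 18.3, 11.2, 1060 and 17.6 CPM and 5.11 to 22.2 CPM (median 9.93). Saa3, an inducible serum amyloid A, was at 3.22, 3.19, 206 and 4.09 CPM and 1.29 to 3.58 CPM (median 2.51). In each the third value, from replicate 3, stood far above the others, and the remaining 5-month values overlapped with those of 10 months. Their changes of -5.08, -4.63 and -4.49 (adjusted p = 0.034, 0.0484 and 0.045) became -2.50, -0.48 and -0.55 without that library and lost their calls, and the calls were also lost in most fits that left out a 10-month library, with adjusted p up to 0.105, 0.483 and 0.165. Hpx, the heme-binding hemopexin, lost its call in 7 of 10 such fits (adjusted p up to 0.0858), and Hp, haptoglobin, in the fit without 10-month replicate 1 (adjusted p = 0.0505). Without 5-month replicate 3 their log2 fold changes of -1.32 and -1.45 became -0.45 and -0.76. Saa1 and Saa2, the main inducible serum amyloids, did not pass (log2 fold change -4.62 and -5.61, adjusted p = 0.0681 and 0.069), nor did Hamp, the iron hormone hepcidin (-0.65, adjusted p = 0.309). The list's count dropped to 11 without 5-month replicate 3 and to 11 without 10-month replicate 1. It was 10 when the replicate number was added to the fit as a block. Neutrophil markers were also highest in 5-month replicate 3, and their part in the result was not tested.

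**Figure D2:**
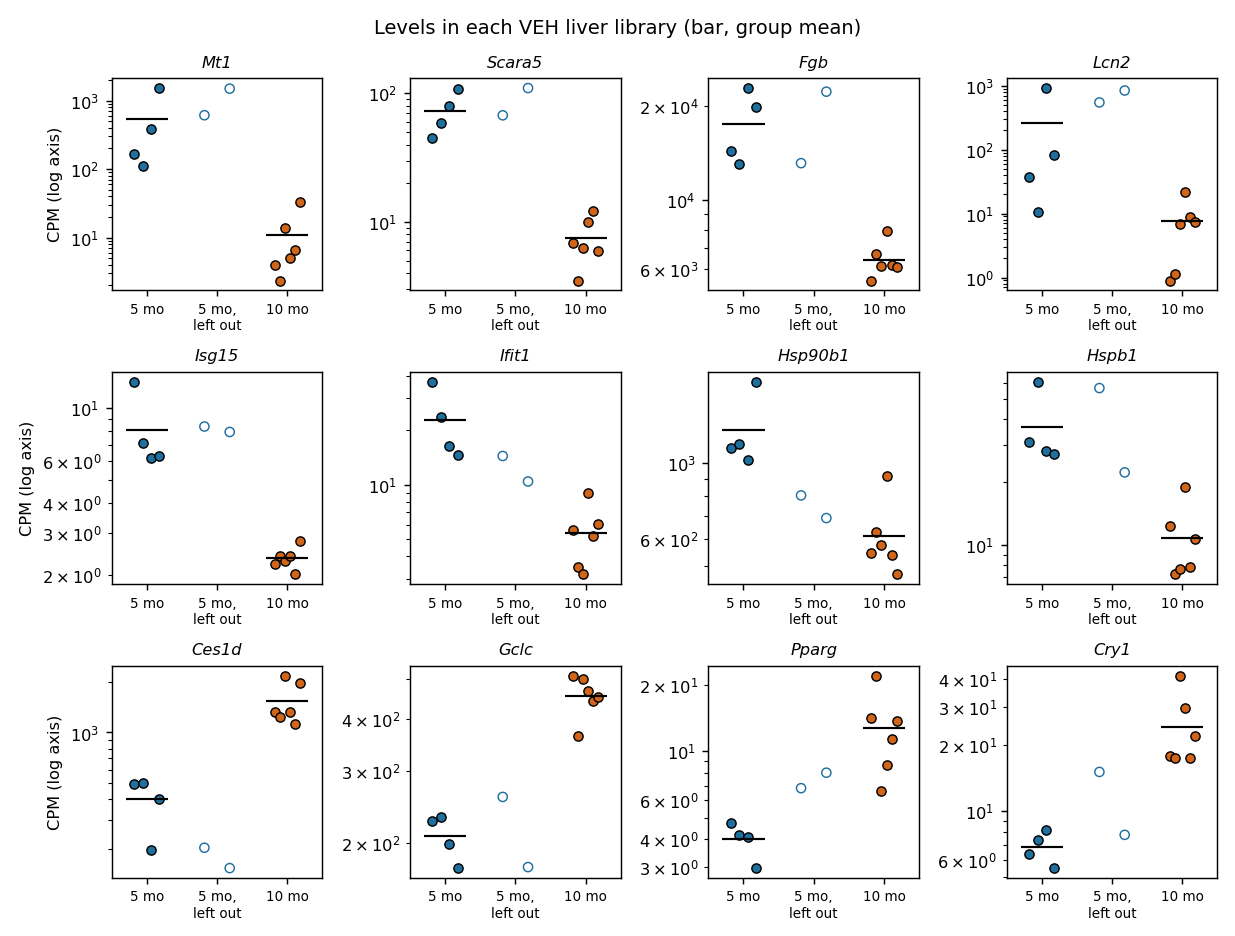
Levels of 12 genes in each VEH liver library, in CPM on a log axis. Filled points are the 4 libraries of 5 months and the 6 of 10 months that were compared, bars are their means, and open points are the 2 libraries of 5 months left out. Lcn2 shows the reach of 1 library (918 CPM), while Scara5, Isg15, Gclc and Ces1d separate the ages in every library compared.

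Interferon-stimulated genes also fell. Of 29 members tested, 17 fell and 0 rose, where 11.1% of all genes were lower, and the median log2 fold change was -0.80. In 14 members all 10-month libraries lay below all of 5 months, against 7.52% of all genes. Isg15 (ENSMUSG00000035692, chromosome 4, 156199424 to 156200818, mm10), a ubiquitin-like protein attached to other proteins during the antiviral response, was at 12.9, 7.16, 6.18 and 6.29 CPM at 5 months and 2.01 to 2.78 CPM (median 2.34) at 10 months. Replicate 1 was the highest of the 5-month libraries, and the groups did not overlap (log2 fold change -1.79, SE 0.21, adjusted p = 0.000352). Ifit1 (ENSMUSG00000034459, chromosome 19, 34640871 to 34650009, mm10), which binds viral RNA and was named after its values were seen, was at 37.1, 23.7, 16.3 and 14.6 CPM and 3.18 to 9 CPM (median 5.38; log2 fold change -2.08, SE 0.32, adjusted p = 0.00245). Its groups did not overlap either.

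Usp18, the protease that removes Isg15 and dampens interferon signalling, differed by -1.36 log2 units (SE 0.17, adjusted p = 0.00059). Oasl1, of the oligoadenylate synthetase family, differed by -1.34 (SE 0.17, adjusted p = 0.000558), and Zbp1, a sensor of Z-form nucleic acid, by -1.43 (SE 0.20, adjusted p = 0.00106). In all 3 the 10-month libraries lay below those of 5 months. The list's count was 13 to 18 over the fits that left out 1 library, and 7 with the replicate number as a block. Irf1 and Psmb8, also induced by interferon, did not pass (0.13 and 0.07). The Ifit and Oas genes are families of similar copies, so their single values are uncertain.

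The promoters of Isg15 and Ifit1 are shown for the interferon-stimulated response element. Capitals mark GAAANNGAAA on either strand, overlaps merged (RefSeq, GRCm38.p6, 300 bases each). Isg15 held 3 matches and Ifit1 held 2. Of the 22 list members with a promoter sequence, 13 held a match, among them 9 of the 13 that fell, against 3.25% of all 9914 promoters.
Isg15, chr4:156200769-156201068, minus strand: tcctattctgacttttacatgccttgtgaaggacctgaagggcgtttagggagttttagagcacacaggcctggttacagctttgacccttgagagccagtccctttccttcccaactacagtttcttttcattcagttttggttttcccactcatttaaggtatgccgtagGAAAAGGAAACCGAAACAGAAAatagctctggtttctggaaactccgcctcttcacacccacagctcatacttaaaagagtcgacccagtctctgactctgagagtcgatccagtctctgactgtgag
Ifit1, chr19:34640639-34640938, plus strand: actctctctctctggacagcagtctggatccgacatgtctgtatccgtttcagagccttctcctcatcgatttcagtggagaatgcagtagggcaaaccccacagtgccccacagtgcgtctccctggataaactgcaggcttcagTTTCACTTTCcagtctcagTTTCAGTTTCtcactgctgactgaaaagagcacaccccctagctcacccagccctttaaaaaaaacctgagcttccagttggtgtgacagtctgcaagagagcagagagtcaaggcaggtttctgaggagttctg

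Chaperones fell in both the endoplasmic reticulum and the cytosol. Of 25 tested genes of the unfolded protein and integrated stress responses, 9 fell and 0 rose, against 11.1% lower over all genes. Their median log2 fold change was -0.63. Hsp90b1 (ENSMUSG00000020048, chromosome 10, 86690209 to 86705509, mm10), the reticulum's HSP90, was at 1110, 1140, 1020 and 1730 CPM at 5 months and 473 to 917 CPM (median 562) at 10 months. The groups did not overlap (log2 fold change -1.03, SE 0.19, adjusted p = 0.00378). Calr (ENSMUSG00000003814, chromosome 8, 84841850 to 84846934, mm10), the calcium-binding lectin chaperone calreticulin, was at 1000, 1160, 1190 and 1560 CPM and 449 to 980 CPM (median 586; log2 fold change -0.96, SE 0.20, adjusted p = 0.00543). Among the 10-month libraries replicate 5 was the highest for both. Hyou1, another reticulum chaperone, overlapped between the ages (log2 fold change -1.27, SE 0.31, adjusted p = 0.0172). Hspa5, the central chaperone BiP, did not pass (log2 fold change -0.72, adjusted p = 0.195), with 5-month replicate 5 at 3150 CPM against 1010 to 1130 CPM in the other 3. Atf4, the factor of the integrated stress response, did not pass either (0.16, adjusted p = 0.182). The count of 9 became 4 without 5-month replicate 5, 10-month replicate 2 or 10-month replicate 4, became 5 without 10-month replicate 1 or 6, and 1 rose and 4 fell with scaling by totals alone.

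Calr and Hsp90b1 held the endoplasmic reticulum stress element, a composite site for the factors NFY and ATF6 whose letters are CCAAT and CCACG separated by 9 others, on either strand (RefSeq, GRCm38.p6). Capitals mark it, with 1 match in Calr and 2 in Hsp90b1. It occurred in 0.171% of 9914 promoters, in 7 of the 23 list members with a sequence and in 4 of the 8 of these that fell.
Calr, chr8:84846882-84847181, minus strand: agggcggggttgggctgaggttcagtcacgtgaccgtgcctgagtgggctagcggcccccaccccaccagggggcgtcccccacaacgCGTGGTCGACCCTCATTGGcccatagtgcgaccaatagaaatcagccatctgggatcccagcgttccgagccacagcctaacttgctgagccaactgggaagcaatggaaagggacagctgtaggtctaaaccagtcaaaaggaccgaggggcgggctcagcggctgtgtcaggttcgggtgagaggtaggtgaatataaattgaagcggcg
Hsp90b1, chr10:86705395-86705694, minus strand: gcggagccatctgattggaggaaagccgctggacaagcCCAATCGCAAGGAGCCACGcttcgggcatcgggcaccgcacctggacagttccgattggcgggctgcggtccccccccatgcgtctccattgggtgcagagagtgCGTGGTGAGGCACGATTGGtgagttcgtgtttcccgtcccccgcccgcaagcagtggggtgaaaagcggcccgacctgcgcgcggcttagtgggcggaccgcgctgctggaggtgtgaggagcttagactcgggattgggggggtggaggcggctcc

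Of 17 heat shock genes tested, 6 fell and 0 rose (median -0.40), against 11.1% lower over all genes. Hsp90aa1, the inducible cytosolic HSP90, was at 273, 350, 237 and 446 CPM at 5 months and 93.7 to 201 CPM (median 135) at 10 months, without overlap (log2 fold change -1.21, SE 0.22, adjusted p = 0.00366). Hspb1, a small heat shock protein, was at 31.2, 60.5, 28.2 and 27.3 CPM and 7.25 to 19 CPM (median 9.26; log2 fold change -1.77, SE 0.32, adjusted p = 0.00552), with replicate 2 the highest at 5 months. Ahsa1, a co-chaperone that activates HSP90, and Hsp90ab1, its constitutive cytosolic form, differed on the log2 scale by -0.79 and -0.64 (adjusted p = 0.00164 and 0.00511). A heat shock element (GAANNTTCNNGAA or TTCNNGAANNTTC) was found in 3 of the 14 promoters of the list and in 0 of the 4 that fell, against 0.353% of all promoters.

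Among single genes, Scara5 (ENSMUSG00000022032, chromosome 14, 65666403 to 65764826, mm10), a scavenger receptor that takes up ferritin, separated the ages in every library compared. It was at 44.8, 58.5, 79.3 and 108 CPM at 5 months and 3.5 to 12.2 CPM (median 6.56) at 10 months. The lowest 5-month library was above the highest of 10 months (log2 fold change -3.29, SE 0.35, adjusted p = 0.000729). Egfr (ENSMUSG00000020122, chromosome 11, 16752203 to 16918158, mm10), the receptor of epidermal growth factor, was at 1650, 1310, 2110 and 3410 CPM and 551 to 939 CPM (median 733; log2 fold change -1.50, SE 0.24, adjusted p = 0.00193). Ccnd1, cyclin D1 of the entry into the cell cycle, was named after its values were seen and differed by -1.34 log2 units (SE 0.23, adjusted p = 0.00338). Both were without overlap. Mki67, a marker of cycling cells, was tied to the choice of libraries and had 2.85, 2.01, 4.43 and 2.62 CPM at 5 months. It had 1.22 to 7.07 CPM (median 3.07) at 10 months, and 37.1 and 10.7 CPM in the libraries left out.

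Cdkn1a, the cell cycle inhibitor p21, was at 19.3, 13.5, 5.74 and 28 CPM at 5 months and 1.32 to 7.37 CPM (median 2.19) at 10 months. The groups overlapped, since 10-month replicate 5 passed 5-month replicate 3 (log2 fold change -2.59, SE 0.56, adjusted p = 0.0125). Of the 19 tested genes of the p53 and senescence list, 1 rose and 4 fell, a share near the 21% called over all genes. The list gave 1 rise and 2 falls without 5-month replicate 1, 1 rise and 7 falls with all 6 libraries of 5 months, and 2 rises and 6 falls with DESeq2. Mdm2, the ubiquitin ligase of p53, was the one that rose (0.35, SE 0.08, adjusted p = 0.0133), but it was not called with all 6 libraries of 5 months (0.16).

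Other genes of the steepest falls were Syt12, a synaptotagmin (log2 fold change -2.78, adjusted p = 0.0031), and Bcl2l14, of the BCL2 family (-2.75, adjusted p = 0.000668). Eif4ebp3, a repressor of translation initiation, was at 7.77, 14.2, 3.44 and 23.7 CPM at 5 months and 0.874 to 2.49 CPM at 10 months (-2.75, adjusted p = 0.00492). Prtn3, a neutrophil granule protease, was at 5.52, 1.54, 30.3 and 1.18 CPM at 5 months and 0.117 to 0.322 CPM at 10 months. It was highest in 5-month replicate 3 (-5.33, SE 1.03, adjusted p = 0.00827), as was Crybb3, a crystallin (-4.24, adjusted p = 0.015). Without that library they were at -3.50 and -2.34, still called. Cxcl14, a chemokine, was at 2.55, 0.978, 17.5 and 1.06 CPM and 0.604 to 1.18 CPM, with a log2 fold change of -2.82 (adjusted p = 0.0365) that became -0.95 without 5-month replicate 3 and lost its call in 7 of the 10 fits that left out 1 library.

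**Figure D3:**
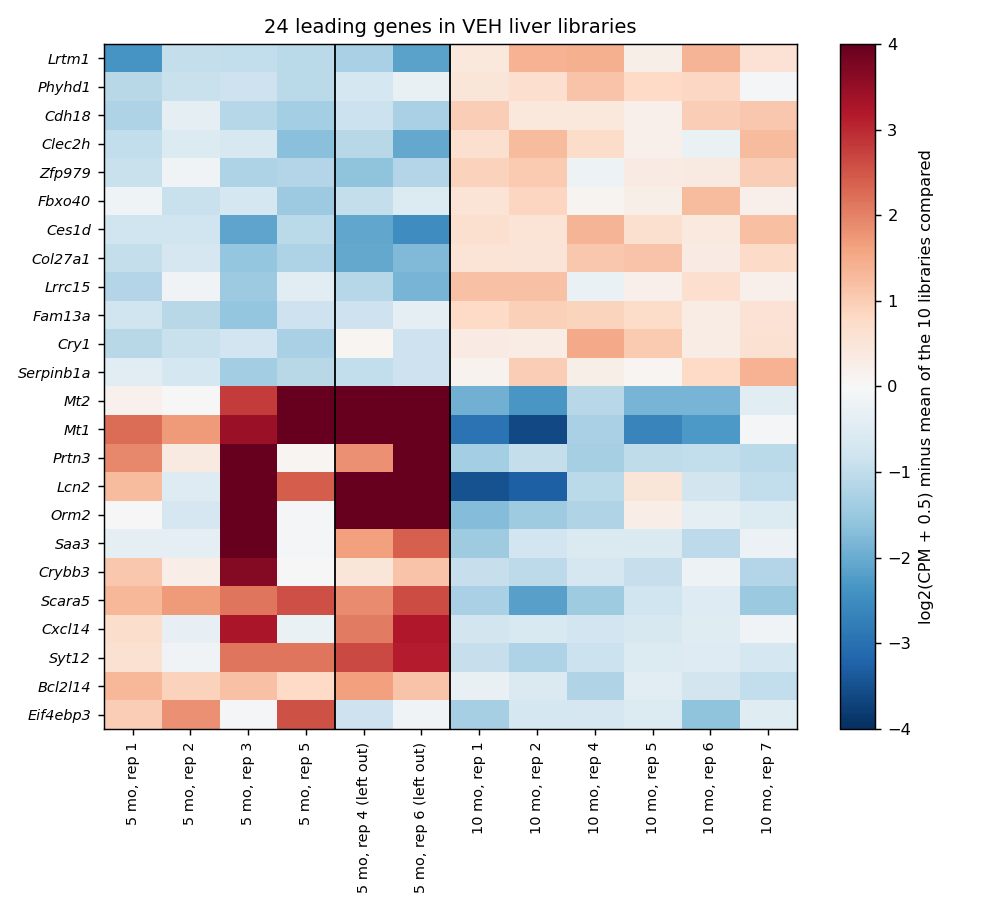
The 12 largest fold changes in each direction among called, untied, annotated genes with a group mean of at least 2 CPM (rows) in the VEH liver libraries (columns). Colour is log2(CPM + 0.5) minus the mean of the 10 libraries compared. Orm2, Saa3 and Cxcl14 stand out in 5-month replicate 3 and the 2 libraries left out, while Scara5 and Bcl2l14 are high in all libraries of 5 months.

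Of 30 tested genes of stellate cells and fibrosis, 8 fell and 0 rose (median -0.42). Over all genes 21% were called and 11.1% were lower. Col4a1 (ENSMUSG00000031502, chromosome 8, 11198423 to 11312826, mm10), a chain of basement membrane collagen, was at 86.3, 90.4, 86.1 and 109 CPM at 5 months and 39 to 49.8 CPM (median 43.3) at 10 months. The groups stood well apart (log2 fold change -1.10, SE 0.09, adjusted p = 9.35e-05). Bgn, the matrix proteoglycan biglycan, overlapped between the ages (-0.77, SE 0.17, adjusted p = 0.0103). Acta2, of activated stellate cells, and Lrat, of quiescent ones, did not pass (0.05 and -0.01). Of the 4 stellate markers 1 was called lower and 0 higher. Des, another of the 4, was at 4.31 to 5.63 CPM at 5 months and 2.17 to 4.45 CPM at 10 months. The count of 8 was 5 without 5-month replicate 1, 2 without 5-month replicate 3, 3 without 10-month replicate 1, 2, 4 or 5, and 2 with scaling by totals. It was 17 with all 6 libraries of 5 months, and 2 with the replicate number as a block. Of 22 endothelial genes, 2 fell, a share near the 11.1% lower over all genes. Lyve1, a hyaluronan receptor of sinusoidal endothelium, was among them (-1.31, SE 0.28, adjusted p = 0.00742). The summed endothelial markers were at 179 to 249 and 188 to 236 CPM.

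Genes of drug, fatty ester and glutathione metabolism were among those that rose. Ces1d (ENSMUSG00000056973, chromosome 8, 93166068 to 93197838, mm10), a carboxylesterase that hydrolyses triglycerides and drugs, was at 493, 497, 199 and 401 CPM at 5 months and 1130 to 2190 CPM (median 1330) at 10 months. All 10-month libraries lay above those of 5 months (log2 fold change 1.95, SE 0.28, adjusted p = 0.00138). Gclc (ENSMUSG00000032350, chromosome 9, 77754535 to 77794485, mm10), the catalytic subunit of the enzyme that limits glutathione synthesis, was at 227, 231, 199 and 174 CPM and 365 to 510 CPM (median 460), also without overlap (log2 fold change 1.13, SE 0.12, adjusted p = 0.000297). Its modifier subunit Gclm differed by 0.46 log2 units (SE 0.11, adjusted p = 0.0125). Aox1, aldehyde oxidase, and Ces1g, another carboxylesterase, differed on the log2 scale by 0.79 and 1.28 (adjusted p = 0.00716 and 0.0088).

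Gclc, Gclm, Aox1 and Ces1g belong to the list of targets of NRF2, the factor of the oxidative stress response. Of the list's 22 tested members 7 were higher and 1 lower, where 9.81% of all genes were higher and 11.1% lower. Leaving aside the genes tied to the choice of libraries, 5 rose and 1 fell. With the replicate number as a block 4 members of the list were higher and 0 lower. Nqo1, a quinone reductase, is one of the tied genes and is given as values, 1.88, 2.93, 2.24 and 3.11 CPM at 5 months and 3.96 to 11.6 CPM at 10 months, with 13 and 15.6 CPM in the libraries left out. The letters TGACNNNGC of the antioxidant response element were in 5 of 19 promoters of the list, against 14.7% of all promoters. Of the 7 promoters of called genes 2 held them, those of Gclm, which rose, and Srxn1, which fell. Srxn1 was at 50.7 to 67 CPM at 5 months and 33.3 to 47.4 CPM at 10 months, without overlap.

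Of 23 tested cytochromes P450 and other targets of the drug receptors CAR and PXR, 8 were higher and 0 lower. Over all genes 9.81% were higher. Of the 8, 4 were tied to the choice of libraries. Of the 4 that were not, Cyp3a25 (ENSMUSG00000029630, chromosome 5, 145977194 to 146009618, mm10), of the main drug-metabolising family, was at 229, 313, 193 and 283 CPM at 5 months and 344 to 771 CPM (median 472) at 10 months. The groups did not overlap (log2 fold change 0.97, SE 0.20, adjusted p = 0.00708). Cyp2c38 differed by 1.23 log2 units (SE 0.28, adjusted p = 0.0123), but Cyp2c genes are similar copies whose reads the counting could split. Cyp2a5, a coumarin hydroxylase, lost its call in 8 of the 10 fits that left out 1 library (log2 fold change 1.28, adjusted p = 0.045, and up to 0.104). Nr1i3, the receptor CAR itself, is tied and was at 25.4, 37.2, 15 and 18.5 CPM at 5 months, 41.7 to 125 CPM at 10 months and 6.67 and 5.39 CPM in the libraries left out. The list gave 4 higher genes without 5-month replicate 1, and 3 higher and 2 lower with all 6 libraries of 5 months. With the replicate number as a block 1 was higher.

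Of 19 genes of bile acid synthesis and transport, 5 were higher and 0 lower, 2 of them tied, where 9.81% of all genes were higher. With scaling by totals alone 10 were higher, and DESeq2 gave 8 higher and 1 lower. The fit with the replicate number as a block gave 2 higher. Akr1d1 (ENSMUSG00000038641, chromosome 6, 37530173 to 37568815, mm10), a reductase of the bile acid pathway, was at 128, 151, 88.3 and 148 CPM at 5 months and 232 to 496 CPM (median 285) at 10 months. Its groups did not overlap (log2 fold change 1.29, SE 0.23, adjusted p = 0.00379). Slco1a4, an uptake carrier of organic anions, differed by 1.29 log2 units (SE 0.33, adjusted p = 0.0224), and lost its call without 5-month replicate 1 (adjusted p = 0.0621). Cyp7a1, the rate-limiting enzyme of bile acid synthesis, was at 22.8, 9.99, 88.6 and 10.6 CPM at 5 months and 61.9 to 315 CPM (median 153) at 10 months. The groups overlapped through 5-month replicate 3, and the gene did not pass (log2 fold change 2.38, SE 0.83, adjusted p = 0.0753).

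Other leading rises were in genes of low abundance. Lrtm1 (ENSMUSG00000045776, chromosome 14, 29018208 to 29033645, mm10), a leucine-rich repeat membrane protein, was at 0.849, 3.09, 3.01 and 2.81 CPM at 5 months and 7.68 to 18.3 CPM (median 13.6) at 10 months (log2 fold change 2.42, SE 0.39, adjusted p = 0.00254). Col27a1, a fibrillar collagen, was at 9.47, 11.6, 6.07 and 7.7 CPM and 23.4 to 42.2 CPM (median 29.9; log2 fold change 1.88, SE 0.21, adjusted p = 0.000446). Fam13a, which carries a RhoGAP domain, was at 7.28, 5.71, 4.15 and 7.17 CPM and 16.1 to 25.9 CPM (median 22.5; log2 fold change 1.84, SE 0.17, adjusted p = 0.000187). None of these 3 overlapped between the ages. Phyhd1, Cdh18, a cadherin, Clec2h, a C-type lectin, Fbxo40, an F-box protein, and Serpinb1a, an inhibitor of neutrophil proteases, rose by 2.26, 2.16, 2.11, 1.95 and 1.82 on the log2 scale without overlap. Zfp979, a zinc finger gene, and Lrrc15, a leucine-rich repeat protein, overlapped (2.09 and 1.85), while Zfp979 reached 2.72 without 5-month replicate 2 and Lrrc15 lost its call without 5-month replicate 1 (adjusted p = 0.0647).

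Genes of the lipid droplet were called in both directions, with 3 of 19 higher and 4 lower, where 9.81% of all genes were higher and 11.1% lower. Over the fits that left out 1 library the higher members numbered 2 to 6 and the lower 3 to 5. DESeq2 gave 6 and 4, and the fit of 4 liver groups without the unusual libraries gave 1 and 3. Pparg (ENSMUSG00000000440, chromosome 6, 115360951 to 115490399, mm10), the nuclear receptor that drives fat storage, was at 4.73, 4.17, 4.1 and 2.96 CPM at 5 months and 6.6 to 22 CPM (median 12.5) at 10 months. The groups did not overlap (log2 fold change 1.68, SE 0.31, adjusted p = 0.00463). Vldlr, a lipoprotein receptor, was higher by 1.33 log2 units (SE 0.30, adjusted p = 0.00828), but was not called with all 6 libraries of 5 months (0.57). Cidea, which enlarges lipid droplets, was at 0.0607, 0.309, 0.219 and 0.114 CPM and 0.194 to 4.32 CPM (median 1.3) and did not pass (adjusted p = 0.0522).

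Cidec, another protein of droplet growth, was lower. It was at 24.8, 23.3, 2.68 and 25.9 CPM at 5 months and 1.25 to 4.61 CPM (median 4.05) at 10 months. Replicate 3 of 5 months fell among the 10-month values, while the other 3 stood above them (log2 fold change -2.45, SE 0.56, adjusted p = 0.0154). Plin2, the main droplet coat protein of hepatocytes, was at 2460, 3160, 1260 and 1590 CPM and 398 to 1150 CPM (median 994), without overlap (log2 fold change -1.28, SE 0.31, adjusted p = 0.0163). Pnpla2, the triglyceride lipase of the droplet, was at 85.6, 67.1, 44.7 and 84 CPM and 28.6 to 37.8 CPM (median 30.3), also apart (log2 fold change -1.13, SE 0.16, adjusted p = 0.0012).

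Of 21 genes of fatty acid oxidation and PPARA, 5 fell and 0 rose (median -0.29), where 21% of all genes were called and 11.1% were lower. Cpt1a, the gate of fatty acids into mitochondria, differed by -0.66 log2 units (SE 0.14, adjusted p = 0.00739). The list's 5 falls became 2 without 5-month replicate 1, 3 without 5-month replicate 2 and 1 with all 6 libraries of 5 months, where Cpt1a was not called. For cholesterol synthesis and fatty acid synthesis edgeR called 0 of 23 and 0 of 18 genes, with medians of 0.34 and 0.33. Fasn, fatty acid synthase, was at 562, 359, 504 and 1820 CPM and 172 to 2860 CPM, and Scd1, stearoyl-CoA desaturase, at 16100, 9260, 14200 and 28400 CPM and 8380 to 35200 CPM, with wide spread at both ages.

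Of 20 clock genes, 4 rose and 1 fell, a share near the 21% called over all genes, so the count is no result about the list and the genes are described singly. Cry1 (ENSMUSG00000020038, chromosome 10, 85131700 to 85185064, mm10), a repressor at the core of the clock, was at 6.37, 7.36, 8.2 and 5.5 CPM at 5 months and 17.4 to 41.5 CPM (median 19.9) at 10 months. The groups did not overlap (log2 fold change 1.82, SE 0.27, adjusted p = 0.00181). Arntl, which encodes the activator BMAL1, overlapped (0.75, SE 0.19, adjusted p = 0.0175) and was not called with all 6 libraries of 5 months. Nr1d1, the repressor REV-ERB alpha, and Nfil3, a repressor of clock outputs, differed on the log2 scale by -1.30 and 0.66 (adjusted p = 0.0411 and 0.0375). Each lost its call in 6 of the 10 fits that left out 1 library, with adjusted p up to 0.111 and 0.0925. The list had 3 rises and 0 falls without 5-month replicate 2 or 10-month replicate 1, 5 or 7. Npas2 and Dbp did not pass (0.19 and -0.92) and turned sign in single omissions, and Per3 did not pass either (1.37, adjusted p = 0.0901). The hour at which tissue was taken is not given in the sources used here, and its part in these values was not tested.

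Iron and hormone genes gave smaller changes. Slc40a1 (ENSMUSG00000025993, chromosome 1, 45908068 to 45926523, mm10), ferroportin, the exporter of cellular iron, was at 113, 114, 147 and 74.3 CPM at 5 months and 177 to 308 CPM (median 244) at 10 months, without overlap (log2 fold change 1.11, SE 0.19, adjusted p = 0.00254). Ghr, the growth hormone receptor, differed by 0.65 log2 units (SE 0.11, adjusted p = 0.00226), and Nr3c1, the glucocorticoid receptor, by 0.47 (SE 0.07, adjusted p = 0.00147), both without overlap. Igf1, the growth factor that growth hormone induces, did not pass (-0.09, adjusted p = 0.724). Hsd3b5, a steroid enzyme of male liver tied to the choice of libraries, was at 215, 245, 307 and 134 CPM and 175 to 308 CPM. The libraries left out had 1.44 and 0.462 CPM. The list of glucocorticoid and stress targets had 5 of 17 members lower and 1 higher, against 11.1% and 9.81% of all genes. Over the fits that left out 1 library 3 to 5 were lower. With limma-voom 2 were lower and 1 higher, and with the replicate number as a block 3 were lower and 0 higher. Of the lower members, Mt1, Mt2 and Lcn2 are also acute phase genes.

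Among lobule markers, 2 of 20 periportal genes rose and 2 fell, and 4 of 21 pericentral genes rose and 0 fell. These shares were near the 21% called over all genes, so the counts are no result about the lists. Etnppl, of the periportal list, is a phospholyase of phosphoethanolamine. It was at 51.9, 91.3, 33.3 and 70.3 CPM at 5 months and 116 to 342 CPM (median 209) at 10 months. The groups did not overlap (log2 fold change 1.77, SE 0.37, adjusted p = 0.00953). It was not called with all 6 libraries of 5 months, where the libraries left out carried 331 and 116 CPM. Aldh1a1, a retinal dehydrogenase of the pericentral list, rose (1.00, SE 0.21, adjusted p = 0.00629). Cdh1, E-cadherin, of the periportal list, fell (-1.01, SE 0.21, adjusted p = 0.00784). Of 13 genes encoded by the mitochondrial genome 4 were lower, against 11.1% of all genes. The count ran from 2 to 8 over the single omissions. It was 2 without 5-month replicate 1 or 5 or 10-month replicate 1, 2, 6 or 7, 8 without 5-month replicate 3, and 0 with all 6 libraries of 5 months. Of 34 nuclear genes of oxidative phosphorylation 2 rose and 0 fell, against 9.81% and 11.1% of all genes.

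edgeR called 0 genes in the lists of MHC class II (9 tested), B cells (13), T and NK cells (10), cholangiocytes (10) and erythroid cells (8). In the macrophage list 1 of 26 rose and 1 fell, against 9.81% and 11.1% of all genes. Of 6 tested neutrophil genes 2 were lower and 0 higher (median -1.16), against 11.1% and 9.81% of all genes, and 0 stood apart between the ages. Lcn2, which lost its call without 5-month replicate 3, was among the 2. Afp, the fetal albumin relative that hepatomas express, did not pass (0.31, adjusted p = 0.478).

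**Figure D4:**
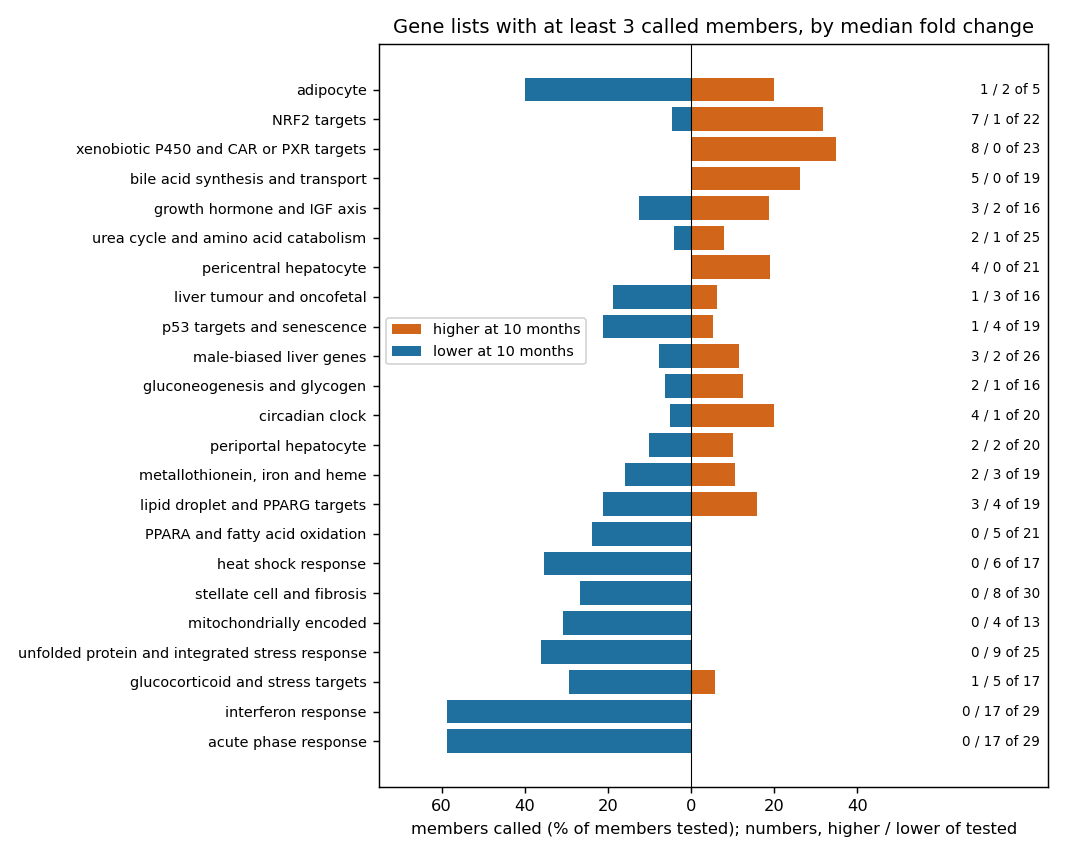
Gene lists with at least 3 called members, ordered by median log2 fold change. Bars give members called higher (right) or lower (left) at 10 months as a percentage of those tested, and the numbers give the counts, tied genes included. Acute phase and interferon lists have 17 of 29 members lower and 0 higher, against 11.1% lower over all genes.

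**Figure D5:**
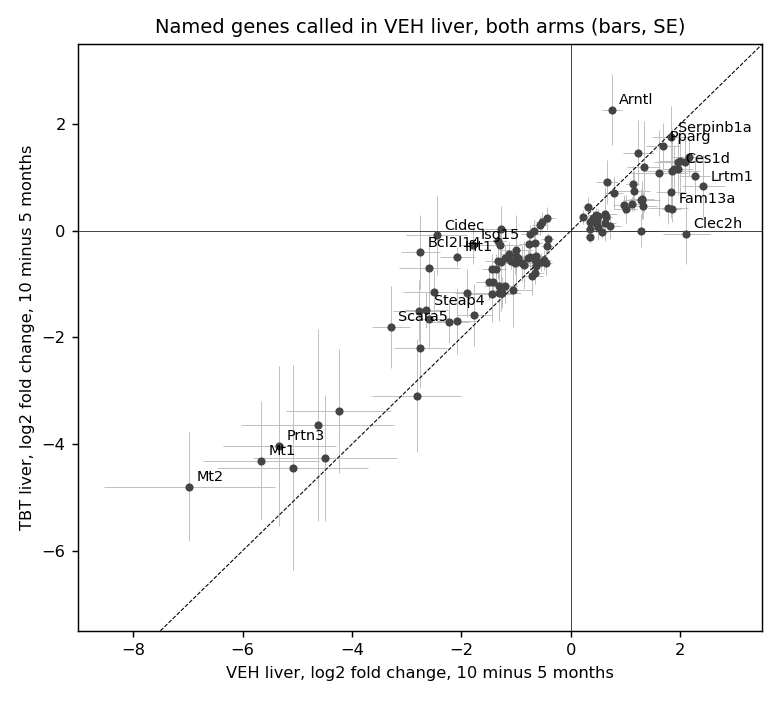
Log2 fold changes (10 minus 5 months) of 114 named genes called in VEH liver and not tied, in VEH liver (horizontal axis) and TBT liver (vertical axis), with SE bars. The dashed line marks equal values, and 105 of the 114 points lie on the same side of 0 in both arms.

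The same ages were set side by side in the TBT arm, which shares no library with the VEH arm. It held 3 libraries of 5 months, with totals of 7513448 to 13661352 counts, and 5 of 10 months. edgeR called 0 of 12794 genes (0%) there, with 1957 at an unadjusted p under 0.05 and a smallest adjusted p of 0.156. DESeq2 called 364 and limma-voom 0. Of the 2629 genes called in VEH liver with a TBT value, 2261 (86%) had the same sign in TBT liver, against 63% of 9884 genes not called. At an unadjusted p under 0.05 in TBT liver, 756 had the same sign and 11 the opposite. The median size of the log2 fold change of the called genes was 0.53 in VEH and 0.27 in TBT liver.

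By group, all 17 acute phase genes that fell in VEH liver had the same sign in TBT liver, where the list's median was -1.16. Mt1 differed by -4.31 on the log2 scale in TBT liver (SE 1.12, unadjusted p = 0.00601), and Pparg by 1.58 (SE 0.44, unadjusted p = 0.00553). Of the 17 interferon-stimulated genes that fell in VEH liver, 16 had the same sign in TBT liver, where the list's median was -0.21 against -0.80. Isg15, Oasl1 and Ifit1 were there at -0.26, -0.20 and -0.49, and Usp18 and Zbp1 at -0.71 and -0.97. In VEH liver Isg15 was at -1.79. Cidec and Plin2 were at -0.09 and 0.03 in TBT liver, against -2.45 and -1.28 in VEH liver. The test of the difference itself, the interaction of age and arm, called 0 of 13115 genes (0%) in edgeR, with 1482 at an unadjusted p under 0.05 and a smallest adjusted p of 0.137. DESeq2 called 95 genes, 46 with a more positive and 49 with a more negative change in VEH liver. With edgeR a difference between the arms was therefore not detected in any single gene. For Isg15, Cidec and Plin2 the adjusted p of this edgeR test was 0.207, 0.389 and 0.408.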

How the data were processed

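RNA from frozen liver was sequenced as stranded total RNA libraries, per the labels' protocols. The authors deposited raw read counts per gene, as whole numbers. The submitters' processing notes name build mm10 and the tools featureCounts, HISAT2, Trim Galore, FastQC and edgeR. Their versions, the annotation and the strand setting of counting were not given in the sources used, so overlapping, antisense and near-identical genes are uncertain. Of 22028 genes in the table, 27 symbols stored as dates were restored by gene identifier. Coordinates are from GENCODE M21.

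The 10 libraries were fitted alone in edgeR 4.0.16 (R 4.3.3), with filterByExpr (minimum count 10, minimum total 15), TMM scaling, robust quasi-likelihood tests, both sides, and Benjamini-Hochberg adjustment over all 12567 genes at 0.05. The interaction was fitted over both arms. The tests were checked on simulated data. Levels are CPM with TMM scaling over all 29 libraries and no filter. The 10 libraries held 18603160 to 33704303 counts, and no 2 libraries held identical values.

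Genes tied to the choice of libraries lay at least 2-fold apart (pseudocount 0.5 CPM) between every 5-month library kept and every one left out. Named genes were the 12 largest fold changes in each direction among called, untied, annotated genes with a group mean of at least 2 CPM, up to 4 called members of each list with at least 3, and Ly6d, Hsd3b5, Afp, Mki67, Glul, Cyp7a1, Cdkn1a and Pparg. Others, such as Ifit1, Steap4, Saa1, Plin2, Ccnd1 and Nr1i3, and list members named only with a fold change, such as Irf1 and Acta2, were chosen after their values were seen. Some genes named by the rule are not reported here. The 42 gene lists (899 entries, 8 not in the table), like the groups, were chosen with earlier results of these data known. Alternatives were other scalings and filters, DESeq2 1.42.0, limma-voom (limma 3.58.1), other sets of libraries, a block for the replicate number, and leaving out the libraries 1 at a time. Those for the TBT arm alone were added after seeing the data. TBT 5-month replicates 2 and 4 were left out of the TBT comparison, the first for intestinal genes and the second for its Ly6d level.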

Additional observations from a re-analysis of the deposited data

Results flagged for a closer look

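Some genes had 1 library far from the others of its group, by Dixon's 95% criterion for the gap to the nearest library. Of 274 groups of libraries examined, 37 stood out so. The criterion's rate of about 1 in 20 holds for independent groups of normal values. Genes here shared outlying libraries and some were named after their values were seen, so the 37 cannot be set against that rate. VEH 5-month replicate 1 was the highest of its group for Isg15 at 12.9 CPM (next 7.16) and Usp18 at 22.1 CPM (next 13.2). VEH 5-month replicate 1 was the lowest of its group for Lrtm1 at 0.849 CPM (next 2.81). VEH 5-month replicate 5 was the highest of its group for Mt2 at 280 CPM (next 20.8), Il1r1 at 309 CPM (next 90.7), Per3 at 3.07 CPM (next 0.971), Fasn at 1820 CPM (next 562) and Hspa5 at 3150 CPM (next 1130). VEH 10-month replicate 7 was the highest of its group for Mt1 at 33.4 CPM (next 13.8), Cpt1a at 828 CPM (next 660), Bgn at 54.4 CPM (next 37.2) and Col1a1 at 5.77 CPM (next 3.95). VEH 5-month replicate 3 was the highest of its group for Prtn3 at 30.3 CPM (next 5.52), Lcn2 at 918 CPM (next 83), Orm2 at 1060 CPM (next 18.3), Saa3 at 206 CPM (next 4.09), Crybb3 at 16.3 CPM (next 2.31) and Cxcl14 at 17.5 CPM (next 2.55). It was also the highest for Cyp7a1 at 88.6 CPM (next 22.8), Hp at 20000 CPM (next 6400), Hpx at 26500 CPM (next 6900), Saa1 at 12500 CPM (next 843) and Saa2 at 14800 CPM (next 582). VEH 5-month replicate 3 was the lowest of its group for Cidec at 2.68 CPM (next 23.3) and Hsp90ab1 at 703 CPM (next 1070). VEH 10-month replicate 4 was the highest of its group for Cyp3a25 at 771 CPM (next 486), Cyp2a5 at 282 CPM (next 160) and mt-Nd6 at 46.8 CPM (next 33.9). VEH 10-month replicate 5 was the highest of its group for Fga at 9570 CPM (next 7450), Hsp90b1 at 917 CPM (next 630), Calr at 980 CPM (next 641), Dnajc3 at 483 CPM (next 333), Cdkn1a at 7.37 CPM (next 2.24) and Il1r1 at 41 CPM (next 22.1). It was also the highest for Fgg at 6360 CPM (next 5020). VEH 5-month replicate 2 was the highest of its group for Hspb1 at 60.5 CPM (next 31.2). VEH 10-month replicate 2 was the highest of its group for Dbp at 10.8 CPM (next 2.66).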

How the results depend on the processing

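The count of 2633 genes stayed within 1.5 times under every scaling, filter, tool and set of libraries tried except the replicate block (2319 to 3138 without omissions), and ran from 1905 to 2541 over the 10 omissions of 1 library. With the replicate number as a block the count was 582 (264 higher, 318 lower, 511 shared). The unfolded protein list then had 6 genes lower, the heat shock list 4 and the fatty acid oxidation list 2. Only numbers 1, 2 and 5 occurred at both ages. The deviations of same-numbered libraries had r of -0.0783, 0.0756 and 0.0276, and those of other pairs ran from -0.169 to 0.234. So few values cannot decide whether same-numbered libraries belong together, and the numbers were not treated as pairs in the main fit. The interaction with the block called 0 genes. With all 6 libraries of 5 months 2998 genes were called, of which 2121 were shared. DESeq2 called 364 genes in the TBT arm and 95 for the interaction, where edgeR called 0. The cause of these differences was not tested. Some genes that did not pass turned sign. Npas2 (0.19, from -0.13 to 0.58 over single omissions) was at -0.13 without VEH 5 months replicate 5 and -0.08 without VEH 10 months replicate 5, and Dbp (-0.92, from -1.77 to 0.25) at 0.25 without VEH 5 months replicate 5. Igf1 was at 0.03 with library totals alone, 0.01 with all 6 libraries of 5 months and 0 with all 22 liver libraries. No named gene past the threshold turned sign in the alternatives run. With 4 libraries of 5 months, 1 library can decide a call.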
